A study of Mus musculus with 27 samples.

Results

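Phosphatidylcholine synthesis was followed through 8 genes, Pcyt1a, Pemt, Chka, Chkb, Chpt1, Cept1, Pcyt2 and Lpcat3, out of 18820 genes that had a probe set of their own on the array. Each gene was represented by its single-gene probe set with the highest mean over 27 arrays, and all 8 passed the intensity filter, so none is missing from the tests. The list was chosen by function and with the maternal diet values of these same pups known, and the study names Pcyt1a from them, so the maternal diet values of the 8 genes are a description and not independent evidence. The p-values beside them come from one fit over all 13279 genes tested and say only which gene passed the threshold of the study, p of at most 0.01.

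Livers came from C57Bl/6J pups of 2 weeks of age, and each array held the total RNA of 1 pup. The diet of the dams was either low in fat (LFD, 10% of energy as fat, 18.0 mg cholesterol per kg) or Western-style and rich in fat (WSD, 45% of energy as fat, 196.5 mg cholesterol per kg). It was fed for 6 weeks before mating and on through pregnancy and lactation. All sires were on control diet. There were 6 males (m-LF) and 9 females (f-LF) of LFD dams, and 6 males (m-WS) and 6 females (f-WS) of WSD dams.

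Phosphatidylcholine is the main phospholipid of cell membranes and of the surface of lipoproteins and bile micelles. Most cells make it from choline, which is phosphorylated, activated to CDP-choline and joined to diacylglycerol. The liver has a second route, in which phosphatidylethanolamine is methylated to phosphatidylcholine, and it remodels the acyl chains of the product afterwards.

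The hepatocyte markers were high on every array, with a mean over the list between 12.58 and 12.77 on the log2 scale. Xist, the RNA that coats the inactive X chromosome, lay between 11.67 and 11.88 in the females and between 3.25 and 4.50 in 10 males, but was 9.30 in m-LF6 and 7.92 in m-WS1, whose Y-linked genes were in the male range. Male results are therefore also given without these 2 pups where they differ. The array names carry a number, 37, 49 or 50 for LFD and 39, 40 or 48 for WSD, whose meaning is not given in the sources used here. Pups of one number share a maternal diet, with 3 numbers on each diet, but males on WSD came only from numbers 40 and 48. Number 39 held females only, so comparisons of the sexes on WSD did not cover the same numbers. If a number stands for a dam or litter, p-values over pups are too small. As a random block the number had a correlation of 0.081, and values with arrays of a number and sex averaged, or without a number, are given where they differ. The names also carry a prefix, G073 or G074, and both prefixes hold pups of all 4 groups. In whole liver RNA, fewer cells of a type and less RNA per cell cannot be told apart.

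The sequences upstream of 4 of the genes are shown: Pcyt1a, the gene past the threshold in both sexes, Chka and Lpcat3, whose values ran together within groups, and Pemt, the gene of the second route. They were chosen after the values were seen, and come from RefSeq (GRCm38.p6), 250 bases up to the annotated start, 5′ to 3′ on the strand of the gene. Capitals mark exact matches, on either strand, to the sterol regulatory element core TCACCCCAC, the GC box GGGCGG or the CCAAT box CCAAT. The windows are chr16:32430671-32430920 (plus strand) for Pcyt1a, chr19:3851523-3851772 (plus) for Chka, chr6:124662854-124663103 (plus) for Lpcat3 and chr11:60040189-60040438 (minus) for Pemt.
Pcyt1a: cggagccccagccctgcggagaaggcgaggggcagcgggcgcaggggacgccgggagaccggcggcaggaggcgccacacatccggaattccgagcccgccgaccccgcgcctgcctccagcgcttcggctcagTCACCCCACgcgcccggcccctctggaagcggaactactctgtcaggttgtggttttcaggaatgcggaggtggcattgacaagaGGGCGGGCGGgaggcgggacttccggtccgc
Chka: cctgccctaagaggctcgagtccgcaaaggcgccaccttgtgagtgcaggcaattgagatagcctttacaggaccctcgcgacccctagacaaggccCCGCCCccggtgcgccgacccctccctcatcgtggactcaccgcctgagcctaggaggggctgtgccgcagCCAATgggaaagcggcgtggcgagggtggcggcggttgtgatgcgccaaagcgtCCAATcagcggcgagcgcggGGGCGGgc
Lpcat3: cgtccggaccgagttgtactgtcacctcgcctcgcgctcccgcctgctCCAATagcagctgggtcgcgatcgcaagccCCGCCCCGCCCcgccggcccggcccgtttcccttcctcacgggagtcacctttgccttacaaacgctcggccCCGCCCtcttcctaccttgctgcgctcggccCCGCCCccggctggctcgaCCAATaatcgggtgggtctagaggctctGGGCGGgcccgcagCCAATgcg
Pemt: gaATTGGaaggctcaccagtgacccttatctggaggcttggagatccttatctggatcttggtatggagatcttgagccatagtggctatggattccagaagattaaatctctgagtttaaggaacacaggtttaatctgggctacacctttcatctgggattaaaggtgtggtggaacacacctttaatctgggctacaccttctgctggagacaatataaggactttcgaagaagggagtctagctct
The windows searched held these 250 bases and the 50 after the start. The sterol regulatory core was found in 2 of the 3 annotated windows of Pcyt1a, which overlap, and in no window of the other 6 genes that have one; 0.55% of all 32851 windows hold it. GC boxes were present in 8 of the 12 windows of the 7 genes, against 35.7% of all windows, and CCAAT boxes in 6 of 12, against 37.4%, and windows of one gene can overlap. The E-box CACGTG and direct repeats of AGGTCA spaced by 1 or 4 bases were found in no window of these genes. The first window of Pemt was poorest in G and C among the 4 shown, at 44.8%, and that of Pcyt1a was richest, at 71.6%. These matches are letters in a window and were not tested for binding. Pcyt2 has no promoter window here.

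Pcyt1a encodes the enzyme that turns phosphocholine into CDP-choline and sets the pace of the choline route, and it was higher in WSD than in LFD pups of both sexes. In males the log2 intensity was 8.38, 8.08, 8.14, 8.10, 8.09 and 8.23 in m-LF1 to m-LF6. In m-WS1 to m-WS6 it was 8.47, 8.25, 8.45, 8.35, 8.39 and 8.25. In females it ran from 8.00 through a median of 8.22 to 8.33 on LFD, and on WSD it was 8.31, 8.22, 8.37, 8.45, 8.43 and 8.37 in f-WS1 to f-WS6.
All WSD pups were above the LFD mean of their sex, but the groups overlapped: m-LF1 reached into the m-WS range, and 3 of 6 m-WS and 4 of 6 f-WS pups exceeded every LFD pup of their sex. The difference of group means was 0.19 ± 0.056 (SE, 1.14-fold, adjusted p = 0.1 by limma with Benjamini-Hochberg) in males. In females it was 0.16 ± 0.051 (SE, 1.11-fold, adjusted p = 0.157 by limma). The changes of the sexes differed by 0.03, with a 95% interval from −0.12 to 0.19 (adjusted p = 0.915 by limma). Within the prefix G073 the changes were 0.23 in males and 0.22 in females, and within G074 they were 0.16 and 0.05. With arrays of a number and sex averaged they were 0.19 in males, still past p of 0.01, and 0.15 in females, no longer past it. The averaged WSD males were those of numbers 40 and 48 only. In males, p rose above 0.01 without number 48 or 49 (0.19 and 0.17), and in females without number 40, 48 or 49 (0.13, 0.14 and 0.12). In females, p also rose above 0.01 without f-LF5, f-WS4 or f-WS5 (changes 0.13, 0.14 and 0.14).

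**Figure D1:**
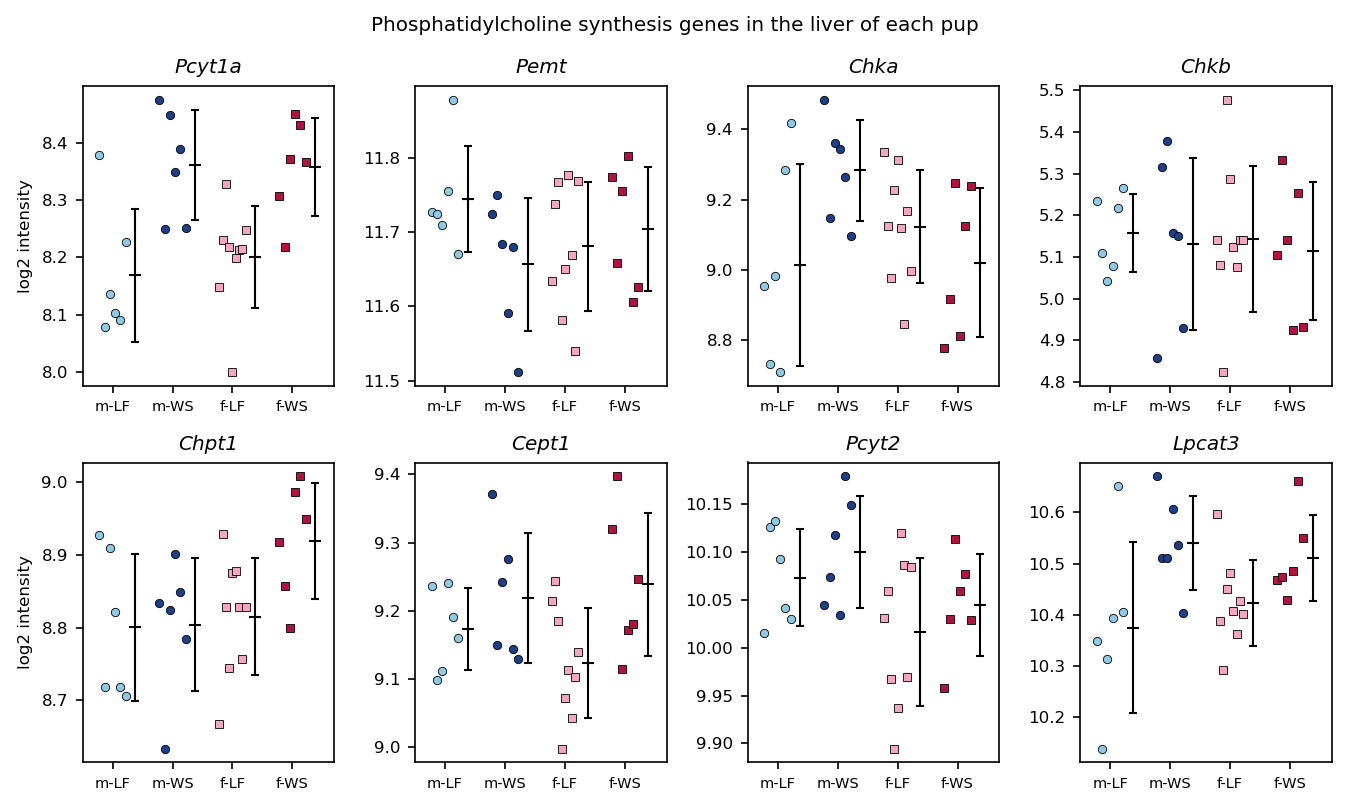
Log2 intensity of the 8 genes in the liver of each pup, by group (m-LF, m-WS, f-LF, f-WS), 1 point per pup, with the group mean and SD beside the points; each panel has its own y axis. Pcyt1a is the gene whose WSD means stand above the LFD means in both sexes by more than their SDs, while the points of all 8 genes overlap between the diets.

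Pcyt1a was 1 of 8 genes past p of 0.01 in males, where 5.14% of all genes passed and 2.79% rose. It was again 1 of 8 in females, where 5.14% passed and 3.66% rose, and 0.264% of all genes rose in both sexes. No gene of the 8 had an adjusted p under 0.05, a threshold reached by 0.452% of all genes in males and 0.294% in females. The median change of the 8 was 0.04 in males and 0.06 in females, beside 0.00 and 0.01 over all genes, and 6 of 8 changes were above 0 in each sex. The genes nearest outside the threshold were Lpcat3 in males, at a difference of 0.16, and Cept1 in females, at 0.12.

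**Figure D2:**
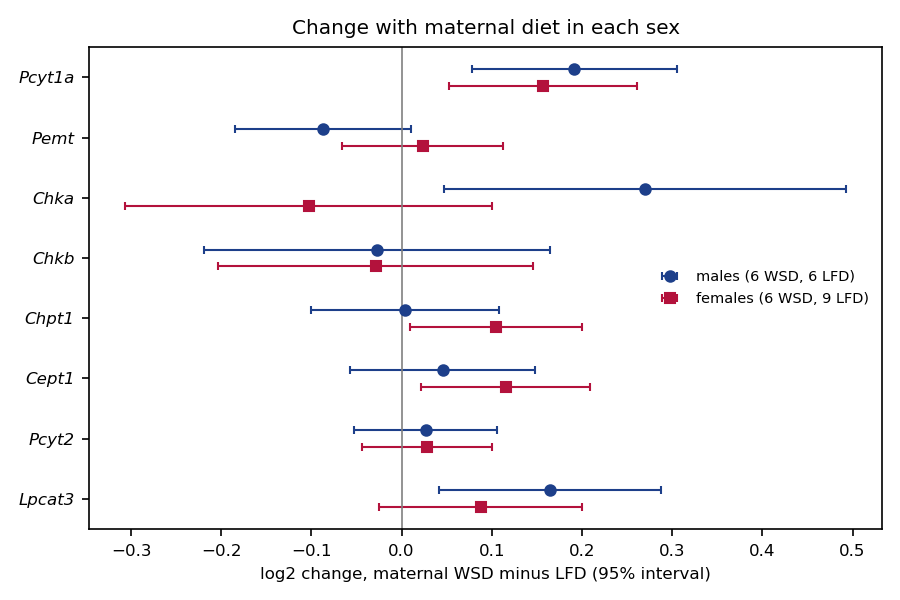
Change in log2 intensity with maternal diet (WSD minus LFD) for each gene, males in blue circles and females in red squares, with 95% intervals from the limma fit. The intervals of Pcyt1a lie above 0 in both sexes. The changes of Chka have opposite signs, 0.27 in males and −0.10 in females, but the female interval, −0.31 to 0.10, spans 0.

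Choline kinases start the choline route, and the 2 genes gave different pictures. Chka, which encodes the kinase found in many tissues and induced in liver by some toxicants, varied most within groups, with an SD of 0.20 against a median of 0.12 over all genes tested. In m-LF1 to m-LF6 it was 8.95, 8.73, 8.98, 8.71, 9.29 and 9.42, and in m-WS1 to m-WS6 it was 9.48, 9.15, 9.36, 9.34, 9.26 and 9.10. In females it ran from 8.85 through 9.12 to 9.34 on LFD and from 8.78 through 9.02 to 9.25 on WSD.
In males, 4 LFD pups lay below every WSD pup and the other two lay among them. In females, 2 WSD pups lay below every LFD pup, 2 LFD pups lay above every WSD pup and the rest overlapped. The male difference was 0.27 ± 0.109 (SE, adjusted p = 0.247 by limma) and the female one −0.10 ± 0.099 (SE, adjusted p = 0.696 by limma). The difference between the sexes was 0.37, with a 95% interval from 0.07 to 0.67 (adjusted p = 0.412 by limma). None of the 8 genes passed p of 0.01 for a difference between the sexes, which 2.45% of all genes did, and Chka was the 1 of 8 with p of at most 0.05, beside 9.69% of all genes. Both values moved with few pups: without m-LF6 and m-WS1 the male difference was 0.31 and the difference between the sexes 0.41, and both then passed p of 0.01 (adjusted p = 0.143 and 0.268 by limma). Within the prefix G073 the difference between the sexes was 0.57, and within G074 it was 0.10.
Chkb, the second kinase, had the lowest signal of the 8, between 4.82 and 5.48 over all pups. It lay near the array medians of 5.34 to 5.43. In 4 pups it had exactly the same value, 5.14, and such ties also occurred in Chpt1 (3 pups) and Chka (2 pups). The differences of Chkb were −0.03 in males and −0.03 in females, with SEs of 0.093 and 0.085. A second probe set that also lists Gm44502 read 7.07 on average and followed the first only loosely (r = 0.17 within groups, 27 arrays), so the level of Chkb is uncertain.

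Chpt1 and Cept1 encode the enzymes that join CDP-choline to diacylglycerol, Cept1 also accepting CDP-ethanolamine. Chpt1 ranged from 8.67 through 8.83 to 8.93 in f-LF and from 8.80 through 8.93 to 9.01 in f-WS. Cept1 ranged from 8.998 through 9.11 to 9.24 in f-LF and from 9.12 through 9.21 to 9.40 in f-WS.
For both genes 3 of 6 f-WS pups lay above all f-LF pups, and the highest female Cept1 values were those of f-WS1 and f-WS2, the pups of number 39. The female differences were 0.10 ± 0.047 (SE, adjusted p = 0.296 by limma) for Chpt1 and 0.12 ± 0.046 (SE, adjusted p = 0.236 by limma) for Cept1, neither past the threshold. The Cept1 value moved with few pups: it was 0.06 without number 39 or 49, and passed p of 0.01 without number 37 or 40 (0.16 each), f-LF2 (0.13) or f-WS3 (0.14). The male differences were 0.00 ± 0.051 and 0.05 ± 0.050 (SE). The changes of the sexes were not distinguished for either gene (differences −0.10 and −0.07, 95% intervals −0.24 to 0.04 and −0.21 to 0.07).

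Pemt, the methyltransferase of the second route and a gene of hepatocytes, had the highest signal of the 8. In m-LF1 to m-LF6 it was 11.73, 11.72, 11.71, 11.76, 11.88 and 11.67, and in m-WS1 to m-WS6 it was 11.73, 11.75, 11.68, 11.59, 11.68 and 11.51. In females it ran from 11.54 through 11.67 to 11.78 on LFD and from 11.61 through 11.71 to 11.80 on WSD.
The 4 lower m-WS values were those of the males of number 48, of which 2 lay below every m-LF pup and 2 at the low end of the m-LF range. The 2 females of number 48, at 11.61 and 11.63, were also the lowest of f-WS. The male difference was −0.09 ± 0.048 (SE, adjusted p = 0.447 by limma), and it was −0.01 without number 48. The female difference was 0.02 ± 0.043 (SE).
Pcyt2, the enzyme that makes CDP-ethanolamine, varied least, with a within-group SD of 0.06. Its interquartile range over the 27 arrays was 0.07, under the 0.1 that the study required, and its differences were 0.03 ± 0.039 in males and 0.03 ± 0.035 in females (SE).

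Lpcat3 encodes the acyltransferase that puts polyunsaturated chains into lysophosphatidylcholine. In m-LF1 to m-LF6 it was 10.35, 10.14, 10.31, 10.39, 10.65 and 10.41, and in m-WS1 to m-WS6 it was 10.67, 10.51, 10.51, 10.61, 10.54 and 10.40. In females it ran from 10.29 through 10.41 to 10.60 on LFD and from 10.43 through 10.48 to 10.66 on WSD.
All WSD pups lay above the LFD mean of their sex, and 4 m-LF pups lay below every m-WS pup. The male difference was 0.16 ± 0.060 (SE, adjusted p = 0.199 by limma) and the female one 0.09 ± 0.055 (SE, adjusted p = 0.486 by limma). A second probe set that also lists Emg1 rose by 0.17 in males (past p of 0.01, adjusted p = 0.168 by limma), although within groups it ran against the first (r = −0.30, 27 arrays).

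The 2 LFD males that overlapped the WSD males in Chka and Lpcat3 were the same pups, m-LF5 and m-LF6, the only males of number 50. Their Chka values were 9.29 and 9.42, against 8.71 to 8.98 in the other m-LF pups. Their Lpcat3 values were 10.65 and 10.41, against 10.14 to 10.39, so that in Lpcat3 m-LF5 alone stood apart and m-LF6 was close to m-LF4 and to the lowest m-WS pup. Pcyt1a did not set them apart, at 8.09 and 8.23 against 8.08 to 8.38. Of these pups, m-LF6 is also 1 of the 2 with the intermediate Xist signal, and the study describes it as clustering with the WSD males. The other pup with such a signal, m-WS1, had the highest m-WS values of Chka (9.48) and Lpcat3 (10.67). The part of this in the overlap was not tested.
The male difference of Chka was 0.44 without number 50, but 0.19 without number 37 and 0.19 without number 49, the other numbers on LFD. That of Lpcat3 was 0.24, 0.10 and 0.15 in the same order, and 0.22 without m-LF5 alone. The difference between the sexes for Chka was 0.55 without number 50, and 0.28 and 0.29 without 37 and 49. Number 50 was singled out because its males overlapped the WSD males, so leaving it out widens the male difference by construction, and no p is given for it. The 2 females of number 50 were not high in Chka, at 9.17 and 8.996. S100a9, a calcium-binding protein of neutrophils, was 7.11 to 7.30 in m-LF5 and m-LF6, 5.72 to 6.14 in the other m-LF pups and 6.72 to 7.59 in m-WS. Over all 9 neutrophil and myeloid precursor genes, all of them measured, the mean per pup was 5.09 to 6.59 in m-LF and 5.84 to 6.49 in m-WS, and 3 of 9 rose in males and 0 in females, where 2.79% and 3.66% of all genes rose. The mean was highest among m-LF pups in m-LF5 and m-LF6, at 6.59 and 6.22. It was also highest among f-LF pups in f-LF8 and f-LF9, the females of number 50, at 6.71 and 6.31. Their Chka was not high, as given above, and their Lpcat3 was 10.43 and 10.40, beside an f-LF mean of 10.42. In the B cell precursor list 4 of 5 genes rose in males and 0 of 5 in females. The mean of that list did not set m-LF5 and m-LF6 apart together, being lowest of m-LF in m-LF5 (5.26) and highest in m-LF6 (6.59). The part of these cells in the values of Chka and Lpcat3 was not tested. The grouping by number was noticed in these data.

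**Figure D3:**
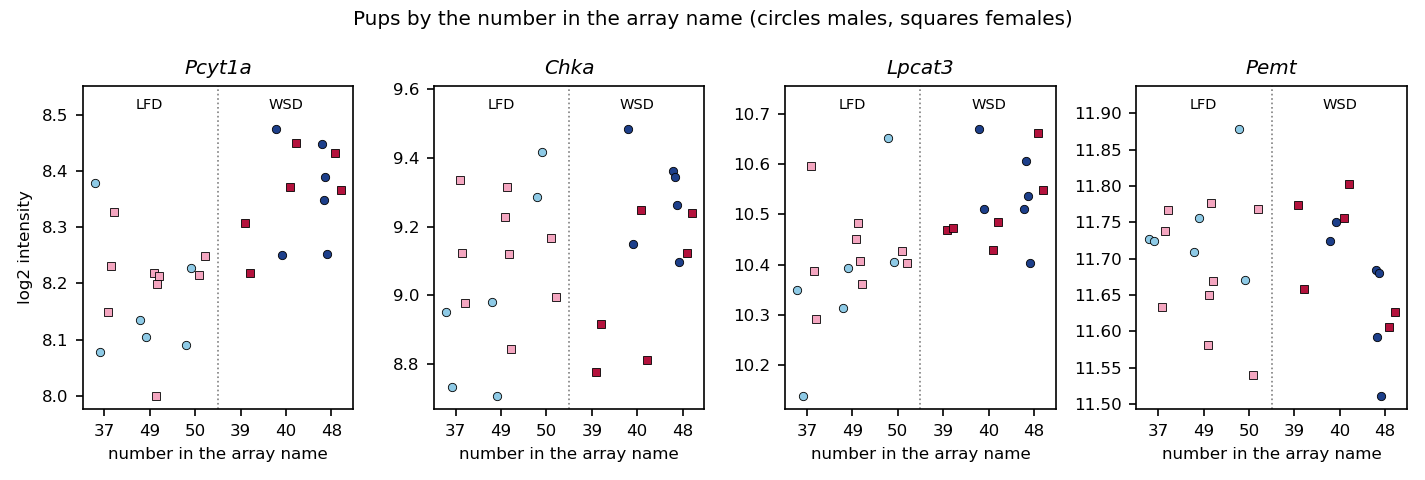
Log2 intensity of Pcyt1a, Chka, Lpcat3 and Pemt by the number in the array name, circles for males and squares for females, light for LFD and dark for WSD. Both males of number 50 stand above the other LFD males in Chka, 1 of them does so clearly in Lpcat3, and all pups of number 48 lie at or below 11.68 in Pemt.

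Within groups, Chka and Lpcat3 varied together more closely than any other of the 28 pairs, with r = 0.64 over 27 arrays after the group means were subtracted. The next pair was Pcyt1a with Chpt1 (r = 0.39), and the lowest was Pcyt2 with Lpcat3 (r = −0.31). By group, r for Chka and Lpcat3 was 0.82 in f-LF, 0.28 in f-WS, 0.64 in m-LF and 0.87 in m-WS. It was 0.63 without m-LF5 and m-LF6, and 0.73 without m-LF4 and m-LF6, the pups farthest from their group mean in Chka. The pups share a normalization, and the pair was singled out after its value was seen. Both genes also ran with the mean of the Kupffer cell markers within groups (r = 0.56 for Chka and 0.62 for Lpcat3) of the endothelial markers (r = 0.53 and 0.55) and of the neutrophil and myeloid precursor genes (r = 0.55 and 0.42), and Lpcat3 ran against the hepatocyte markers (r = −0.60). Pcyt1a ran against the Kupffer markers (r = −0.42) and the cholangiocyte markers (r = −0.41). These r with marker lists were not computed with any pup left out. The pup farthest from its group mean in Lpcat3, m-LF5 (0.28), had the lowest hepatocyte mean of all pups (12.58). It also had the highest Kupffer mean of m-LF (9.39), so its share in these r is not known.

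**Figure D4:**
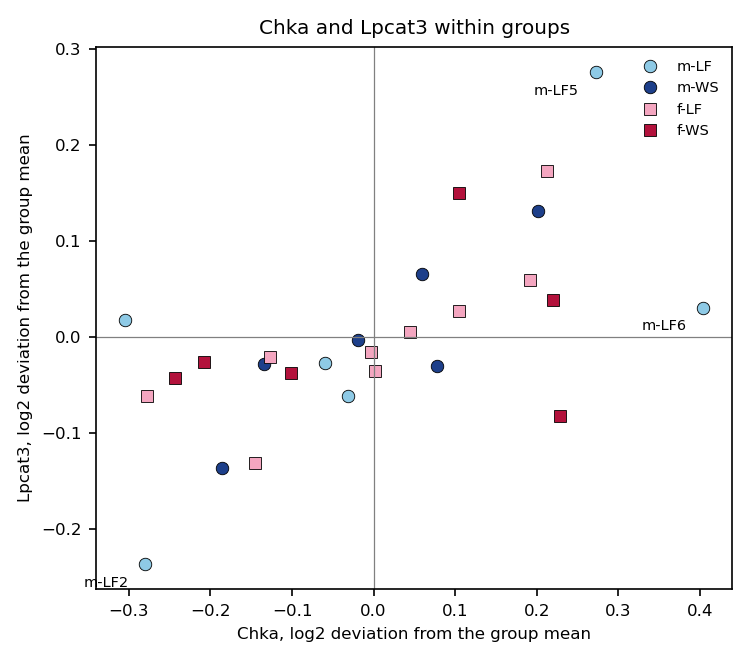
Deviation of Lpcat3 (y axis) against that of Chka (x axis) from the group mean, in log2 units, 1 point per pup, with 3 m-LF pups named. The points run from lower left to upper right (r = 0.64). With the points of m-LF5 and m-LF6 left out r is 0.63, about group means that still include these pups.

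The genes whose values ran closest to each member within groups were Frg2f1, Ap1g1 and Ube4a for Pcyt1a (r from 0.75 to 0.78) and Pla2g12b, Akr1a1 and 1810058I24Rik for Pemt (r from 0.78 to 0.83). They were Nab2, Clec7a and BC004004 for Chka (0.76 to 0.84) and Ifnar2, Krt23 and Sema4a for Lpcat3 (0.78 to 0.80). For Chkb they were Mpv17, Hid1 and Tmc6 (0.65 to 0.72), for Chpt1 Mtap, Sdha and Immt (0.75 to 0.80), for Cept1 Dcaf6, Med6 and Fkbpl (0.77 to 0.78), and for Pcyt2 Fgd6, Ankrd2 and Lrrc28 (0.70 to 0.71). Each is the top of 13279 genes over 27 arrays, and was picked for its r. Clec7a is a receptor of myeloid cells.

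Between the sexes on one diet, 0 of the 8 genes passed p of 0.01 by limma, and at p of at most 0.05 there were 0 on LFD and 2 on WSD (Chka and Chpt1), beside 6.8% and 10.3% of all genes. On LFD the differences, male minus female, lay between −0.11 (Chka) and 0.06 (Pemt), where 1.34% of all genes passed. On WSD they lay between −0.12 (Chpt1, adjusted p = 0.423 by limma) and 0.26 (Chka, adjusted p = 0.381 by limma), where 3.25% passed.

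Around these 8 genes, 63 tested genes of 7 lists cover the supply of choline, diacylglycerol and methyl groups, the ethanolamine branch, remodelling, export and regulators. In males 4 rose and 3 fell, which is 11.1% of 63 beside 5.14% of all genes. In females 3 rose and none fell, which is 4.8% beside 5.14%. The median change was −0.00 in males and 0.02 in females.
Among the genes that supply diacylglycerol, Plpp2, a lipid phosphate phosphatase, rose in both sexes, by 0.35 ± 0.088 in males (adjusted p = 0.0654 by limma) and 0.28 ± 0.080 in females (SE, adjusted p = 0.104 by limma). Plpp1, of the same family, fell by 0.50 ± 0.117 in males (SE, adjusted p = 0.048 by limma), from 8.51 to 9.13 in m-LF to 8.25 to 8.48 in m-WS. It was 0.02 ± 0.106 (SE) in females, and the sexes differed by −0.52 (past p of 0.01, adjusted p = 0.385 by limma). Gpat4, a glycerol-3-phosphate acyltransferase of the endoplasmic reticulum, rose by 0.18 in males (adjusted p = 0.112 by limma), and without number 48 its change was 0.078, not past p of 0.01.
Of the regulators, Nr5a2, a nuclear receptor that binds phospholipids, rose by 0.21 ± 0.051 in males (SE, adjusted p = 0.0538 by limma), from 8.98 to 9.19 in m-LF to 9.22 to 9.39 in m-WS. Its female difference was 0.00 in size, and the sexes differed by 0.21 (past p of 0.01, adjusted p = 0.39 by limma), a call lost in 12 of 49 other settings, at 0.13 without number 39. Srebf2, the sterol-regulated factor that binds the sterol regulatory element, rose by 0.25 in females (adjusted p = 0.161 by limma), a call lost in 15 of 50 other settings, with a change of 0.14 without number 40. Sgms1, which uses phosphatidylcholine to make sphingomyelin, fell by 0.19 in males (adjusted p = 0.0538 by limma), and within G074 its change was −0.11, not past p of 0.01.
In the choline list Flvcr2, a choline transporter, was past p of 0.01 in females, at 0.26 (adjusted p = 0.183 by limma), but lost the call in 29 of 50 other settings and was 0.10 without number 39. Slc44a4 fell by 0.38 in males (adjusted p = 0.161 by limma), at a mean signal of about 5, under the array medians. The call was lost in 13 of 50 other settings, with −0.25 without number 49. Nnmt, which uses up methyl groups on nicotinamide, rose by 1.18 ± 0.397 in males (SE, adjusted p = 0.158 by limma), with m-WS pups from 6.65 to 8.63 and m-LF pups from 5.99 to 6.85. Its change was 0.32 without number 48 and the call was lost in 13 of 50 other settings. In the ethanolamine and remodelling lists no gene passed: the smallest p belonged to Etnppl in males (0.43, adjusted p = 0.202 by limma) and Ptdss1 in females (0.08, adjusted p = 0.578 by limma), and to Mboat1 in males (−0.37, adjusted p = 0.262 by limma) and Pla2g4a in females (0.19, adjusted p = 0.452 by limma). Where a list had no call in one sex, its smallest p was that of Mat1a (−0.03) and Stard7 (0.09), both in females.

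**Figure D5:**
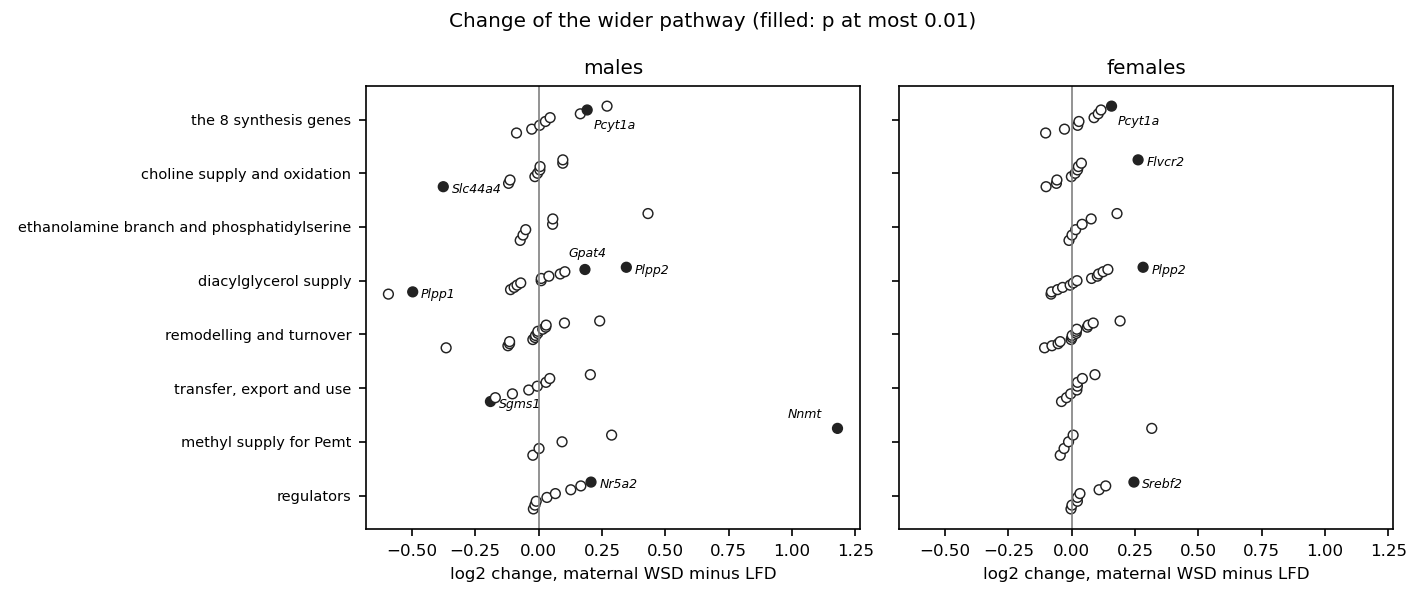
Change in log2 intensity with maternal diet (WSD minus LFD, x axis) for each tested gene of the 8 synthesis genes and of 7 lists around them, males left and females right; filled points passed p of 0.01. Most points lie close to 0, and the filled ones are named, from Plpp1 at −0.50 to Nnmt at 1.18 in males.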

How the data were processed

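Total liver RNA of 27 pups was measured with 1 Affymetrix array (Mouse Gene 1.1 ST) for each, all hybridised at one time point. The authors deposited log2 intensities of probe sets, normalised together by RMA (version not given in the sources used here). They run from 1.51 to 13.58, and array medians from 5.34 to 5.43. The 35556 probe sets are those of the manufacturer, without the redefinition to Entrez genes described in the methods. A gene was read from its brightest probe set that lists no other gene (21218 such probe sets, 18820 genes).

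Genes reaching an intensity of 20 on 4 or more arrays, 13279 in all, entered one fit of the 4 group means with limma 3.58.1 under R 4.3.3 and eBayes with an intensity trend, in place of the intensity-based moderated test of the methods. A gene was called at p of at most 0.01, the p adjusted by Benjamini-Hochberg over all genes is printed, and no interquartile range filter was used. Groups came from the titles, and the labels do not say which pups share a dam. The 8 genes, the 7 pathway lists (70 genes) and the 8 marker lists were chosen with earlier results of these data known. The text names all 8 genes, each pathway gene called in either sex, the smallest p of a list with none, and the 3 genes closest to each of the 8. S100a9, the Chka and Lpcat3 pair, the shared probe sets and the promoters shown were chosen after the values were seen. Precision is limited by the number of arrays. On simulated data with 200 changed genes among 13279, a log2 change of 0.2 was recovered at p 0.01 for 54.0% in the male comparison and 67.5% in the female one, and a change of 0.3 for 80.0% and 86.0%. The simulated arrays varied independently, so any deviation shared by pups of one number is absent from them. These shares are taken over genes of all spreads, and Chka varied more than the median gene. Alternatives changed the filter, prior variance, normalization, array weights, blocks, probe sets and the pups fitted. Protein sequences, body weights, plasma lipids and PCR data were not analysed here. Plots were made in matplotlib 3.10.9 (Python 3.11.15).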

Additional observations from a re-analysis of the deposited data

Results flagged for a closer look

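None of the 8 synthesis genes was flagged: no pup stood apart from its group in the 32 combinations of gene and group, and no difference between the sexes passed p of 0.01. Among the pathway genes named, the maternal diet change differed between the sexes for Plpp1, by −0.52 (male minus female, adjusted p = 0.385 by limma), and for Nr5a2, by 0.21 (adjusted p = 0.39 by limma). A single pup lay far from the rest of its group for Flvcr2 in m-WS4 (9.02), Srebf2 in m-LF6 (8.31), and Mat1a in m-LF5 (12.50) and in f-WS1 (12.54). These are 4 flags in 92 combinations of 23 genes and 4 groups, and chance flags about 1 in 20.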

How the results depend on the processing

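Over 1981 values of 40 results for the 8 genes, 1823 kept their direction and their side of p 0.01, 12 lost the call, 34 gained it and 112 turned sign. For the 20 pathway gene results, 852 of 997 values kept both, 102 lost the call, 18 gained it and 25 turned sign. No value that turned sign passed p 0.01 in either setting. The causes were not tested.

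The change of Pcyt1a was above 0 in every setting run. In females it was past p 0.01 except at 0.14 with arrays centred on medians, 0.051 within G074, 0.15 with arrays of a number and sex averaged, and 0.13, 0.14 and 0.12 without numbers 40, 48 and 49, and 0.13, 0.14 and 0.14 without f-LF5, f-WS4 and f-WS5. In males the exceptions were 0.16 within G074 and 0.19 and 0.17 without numbers 48 and 49. Leaving out 1 pup gave 0.17 to 0.23 in males and 0.13 to 0.18 in females. The members called in males, 1 in the report, were 0 within G074 and without number 48 or 49. They were 2 with a repeated quantile normalization, the prefix as a block, within G073 and without m-LF6 and m-WS1. They were 3 with array weights and without number 50 (1 to 3 without 1 pup). In females they were 0 with arrays centred on medians, within G074, with arrays averaged and without number 48 or 49, and 2 without number 37 (0 to 2 without 1 pup), and the 1 without number 40 was Cept1, with Pcyt1a lost. For the difference between the sexes, 0 in the report, 1 was called with array weights, within G073, and without number 50 or m-LF6 and m-WS1 (0 to 1 without 1 pup). Leaving out number 50 widens the male differences of Chka and Lpcat3 by construction, as said above, so the member calls gained without it are not evidence. Genes called in males, 682 of all, were 426 within G073, 93 within G074, 282 with arrays averaged, and 444, 376, 400 and 1051 without numbers 37, 48, 49 and 50. In females, 683 of all, they were 248, 263 and 226 in the first 3 of these settings, and 407 and 217 without numbers 40 and 49.

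The replicate numbers of the titles are shared between groups but did not pair the pups: over 36 pairs of the same number the deviations from the group means had r from −0.25 to 0.37, median 0.02. With the replicate block, 2 members were called in males and 1 for the difference between the sexes, Lpcat3 and Chka being added (0.16 and 0.43).

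The values that turned sign follow by setting, where diet change is WSD minus LFD within a sex, sex difference is the male minus the female diet change, and LFD sexes and WSD sexes are male minus female on that diet. With arrays centred on medians these were the diet change Chpt1 in males −0.013, Plpp1 in females −0.0004, the sex difference Pcyt2 0.0026, the LFD sexes Chpt1 0.0093, the WSD sexes Cept1 0.0082. With a repeated quantile normalization these were the sex difference Chkb −0.0054, Pcyt2 0.018. With array weights these were the diet change Chkb in males 0.0005, Chpt1 in males −0.0057, Plpp1 in females −0.029, Nr5a2 in females 0.0002, the sex difference Pcyt2 0.0063. With the prefix as a block these were the sex difference Chkb −0.019, Pcyt2 0.0005. With G073 alone these were the diet change Pemt in females −0.011, Pcyt2 in females −0.015, Plpp1 in females −0.081, Nr5a2 in females 0.045, the sex difference Pcyt2 0.031, the LFD sexes Pcyt1a 0.011, Chkb −0.011, Chpt1 0.0086, the WSD sexes Cept1 0.034. With G074 alone these were the diet change Chkb in males 0.020, Chka in females 0.029, Chkb in females 0.11, the sex difference Chkb −0.087, the LFD sexes Chka 0.021, the WSD sexes Chkb −0.029. With the number as a random block these were the diet change Chpt1 in males −0.0031, the WSD sexes Pcyt1a −0.0033. With arrays of a number and sex averaged these were the diet change Chpt1 in males −0.014, the sex difference Chkb −0.021. Without number 37 these were the LFD sexes Chkb −0.057, Lpcat3 0.019. Without number 39 these were the diet change Plpp1 in females −0.070, Nr5a2 in females 0.076, the sex difference Pcyt1a −0.013, the WSD sexes Pcyt1a −0.044, Cept1 0.040. Without number 40 these were the diet change Pemt in females −0.015, Chkb in females 0.012, Plpp1 in females −0.015, the sex difference Chkb −0.017, Pcyt2 0.040, the WSD sexes Chkb −0.0024, Lpcat3 −0.024. Without number 48 these were the diet change Chpt1 in males −0.067, Pcyt2 in males −0.014, the sex difference Chkb −0.054, the WSD sexes Chkb −0.039, Cept1 0.0092. Without number 49 these were the diet change Chkb in females 0.049, Nr5a2 in females 0.0017, the sex difference Chkb −0.13, Pcyt2 0.024, the LFD sexes Cept1 −0.0053. Without number 50 these were the diet change Chkb in males 0.015, Chpt1 in males −0.040, Plpp1 in females −0.040, Nr5a2 in females 0.0006, the LFD sexes Chkb −0.028, Chpt1 0.022. Without m-LF6 and m-WS1 these were the diet change Chkb in males 0.049, Chpt1 in males −0.021, the sex difference Pcyt2 0.001, the LFD sexes Chkb −0.007, Chpt1 0.0038, the WSD sexes Pcyt1a −0.019. With the replicate block these were the diet change Plpp1 in females −0.007, Nr5a2 in females 0.0019. With the probe set shared with another gene these were the diet change Chkb in males 0.083, the LFD sexes Chkb −0.069. Leaving out 1 pup gave these ranges: LFD sexes, Chkb −0.025 to 0.057, Chpt1 in males −0.015 to 0.038, sex difference of Chkb −0.048 to 0.057, sex difference of Pcyt2 −0.019 to 0.014, LFD sexes, Chpt1 −0.040 to 0.0038, Chkb in males −0.076 to 0.028, WSD sexes, Pcyt1a −0.024 to 0.026, WSD sexes, Chkb −0.033 to 0.071, Chkb in females −0.072 to 0.013, WSD sexes, Cept1 −0.051 to 0.012, Plpp1 in females −0.024 to 0.076, Nr5a2 in females −0.037 to 0.033.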
